A study of Mus musculus with 2 samples.

Results

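The B cell antigen receptor and the factors that build B cell identity were followed here as 9 genes in mouse leukaemic stem cells: Cd79a, Cd79b, Blnk, Btk, Cd72, Pou2af1, Pax5, Ebf1 and Mzb1. The genes were chosen with earlier results of these data known, and their probes were taken by gene symbol from the array annotation. Of the 9, 8 had at least 1 named probe (12 probes in all), out of 19057 named genes, and no probe was named Cd79a in the annotation used here, so that gene has no value below. PirBTM MLL-AF9 cells were set against wild type MLL-AF9 cells. Both came from bone marrow of C57BL/6J mice, with a labelled age of 9 weeks, and both carried MLL-AF9, a fusion oncogene of acute myeloid leukaemia, so the fusion does not separate the groups. The sources used here do not describe the PirBTM allele, how MLL-AF9 was introduced, or the gate by which the cells were isolated. Pirb encodes an inhibitory receptor of B cells and myeloid cells, and no probe bore its name. Each group was a single Illumina array of 45281 probes read on 1 chip. There are therefore no replicates, no test between the groups and no p-value, and what follows compares 2 samples.

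In B cells the membrane antibody cannot signal by itself. It pairs with the Cd79a and Cd79b chains, whose cytoplasmic tyrosine motifs are phosphorylated and recruit the kinase Syk, after which the adaptor Blnk brings the kinase Btk to phospholipase C. Cd72 is a coreceptor that dampens this signal through the phosphatase Ptpn6. Ebf1 and Pax5 commit progenitors to the B lineage, and Pou2af1 is a coactivator that works with octamer-binding proteins. Mzb1 is a chaperone of the endoplasmic reticulum that assists antibody assembly in marginal zone B cells, plasma cells and plasmacytoid dendritic cells. Btk is also a kinase of normal myeloid cells, and Blnk and Cd72 are found in some myeloid cells as well.

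The 8 measured genes fell into 3 patterns. Cd79b and Btk were detected on both arrays. Cd72, Mzb1, Pou2af1, Blnk and Ebf1 were detected in PirBTM cells only. Pax5 was detected in neither sample. Here a probe is called detected, or above background, if the p-value that the scanner gave it against the negative controls of its own array was under 0.01. Of the 7 detected genes, 5 were at least 2-fold higher in PirBTM cells and 0 were lower by that much. Over all 9432 genes detected in either sample, 12.8% were higher by 2-fold or more and 9.67% lower. Detection in PirBTM cells alone applied to 5 of these 7 genes and to 12.1% of the 9432. A gene detected in PirBTM cells alone could not be called lower, though it need not reach 2-fold. Of 1143 such genes 443 were at least 2-fold higher, and of the 5 under study 4 were. Detection thus set the direction, so these counts describe the genes and support nothing further.

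Log2 ratios are PirBTM minus wild type, on background-corrected, quantile-normalized intensities. For a gene detected in 1 sample, the fold is a minimum (written "at least"): its bright value was set against its own dim value or against the dimmest detected probe of the other array (5.95 log2 units in wild type), whichever was higher. In place of a replicate error, the difference between probes of the same gene was used. Over 2944 genes with more than 1 probe detected in both samples, the SD of a single probe's log2 ratio was 0.30. It was 0.33 where the dimmer probe lay below 8 log2 units and 0.27 where it lay at or above. This SD does not contain the variation between animals or RNA preparations.

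**Figure D1:**
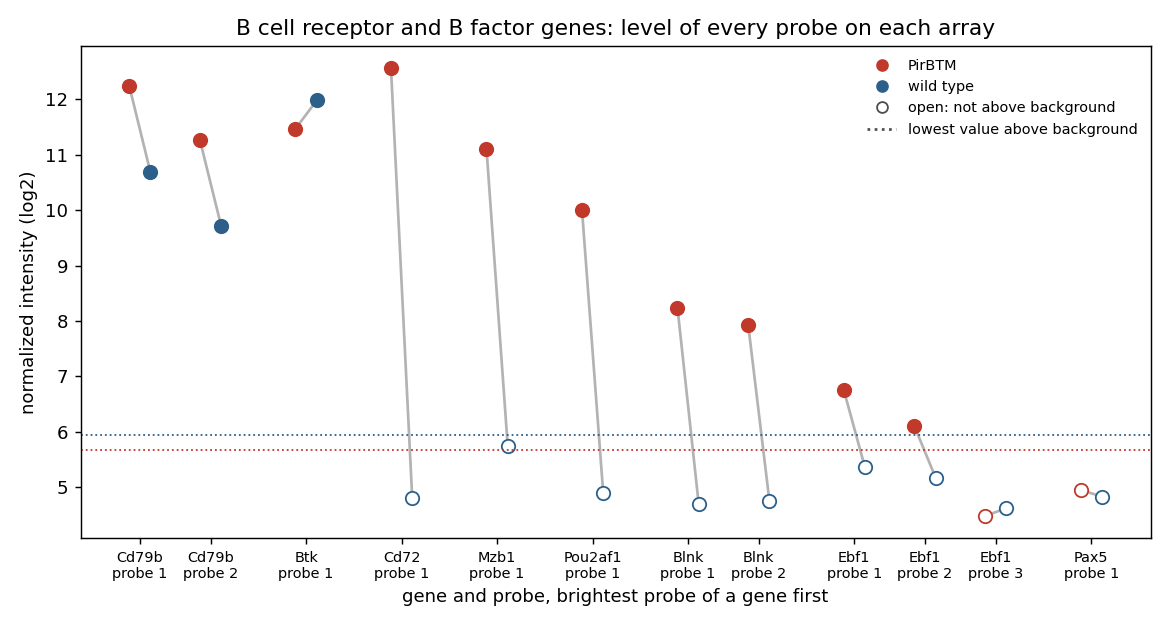
Normalized intensity (log2) of each of the 12 probes on the PirBTM array (red, left of each pair) and the wild-type array (blue, right); open symbols are not detected and dotted lines mark the dimmest detected probe of each array. Cd79b and Btk are filled on both arrays, 5 genes have a filled symbol on the PirBTM array only, and Pax5 is open on both.

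Cd79b, the receptor's signalling chain, was bright in both samples and higher in PirBTM cells. Its brighter probe (ILMN_2610822) read a deposited intensity of 5306 in PirBTM and 1629 in wild type. The other probe (ILMN_2661523) read 2763 in PirBTM and 876 in wild type. After normalization the brighter probe stood at 12.24 log2 units in PirBTM and 10.68 in wild type, 2.96-fold higher in PirBTM, and the other at 11.26 and 9.71, 2.94-fold higher. Both probes gave a log2 ratio of 1.56, which is 5.2 times the probe SD. Wild-type cells thus had clear Cd79b signal, unlike that of Cd72, Pou2af1 and Blnk. Of the 7858 genes detected in both samples, 9.77% were higher by 2-fold or more and 9.86% lower, and of Cd79b and Btk 1 was higher by that much.

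Btk, the kinase downstream of the receptor, had the opposite sign. Its single probe (ILMN_1235934) read 3145 in PirBTM and 3919 in wild type. That is 11.47 log2 units in PirBTM and 11.98 in wild type, a log2 ratio of -0.52, or 1.7 times the probe SD. The median log2 ratio of all 9432 genes was itself -0.15, and relative to it Btk stood at -0.36. Cyclic loess moved the median of all genes to 0.08 and median scaling to -0.02, and relative to these Btk stood at -0.35 and -0.52.

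Blnk, the adaptor that links Syk to Btk, was seen in PirBTM cells only, and its 2 probes gave the same picture. The brighter probe (ILMN_2726931) read 479.8 in PirBTM and 138.4 in wild type, where its detection p-value was 0.444. The other (ILMN_1244526) read 416.4 in PirBTM and 140.6 in wild type, with a detection p-value of 0.366. Both wild-type readings sat at the inferred background of that array (139.3). On the normalized scale the brighter probe stood at 8.24 in PirBTM and 4.70 in wild type, which makes Blnk at least 4.88-fold higher in PirBTM, and the other probe gave at least 3.94-fold. The deposited intensities differed less, 3.47-fold and 2.96-fold, and in the authors' deposited values the log2 bound of 2.29 became 1.14.

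Cd72, the inhibitory coreceptor, had the largest minimum fold of the 5 genes seen in PirBTM cells only. Its probe (ILMN_2675669) read 6437 in PirBTM and 142.5 in wild type, with a detection p-value of 0.304 in wild type. This is 12.56 log2 units in PirBTM and 4.81 in wild type, so Cd72 was at least 97.4-fold higher in PirBTM. The deposited intensities, with no correction, differed 45.2-fold, and without background correction the log2 bound of 6.61 became 5.02, so the size of the fold rests on how background is treated. A single probe was named Cd72, so there is no second probe to set beside it.

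The transcription factors of the set differed in how far they stood above background. Pou2af1 was dark in wild-type cells and bright in PirBTM cells. Its probe (ILMN_1228328) read 1264 in PirBTM and 145.9 in wild type (detection p-value 0.224), or 10.01 and 4.90 log2 units, and was at least 16.6-fold higher in PirBTM. The deposited intensities differed 8.66-fold, and without background correction the log2 bound of 4.06 became 2.61. Ebf1, which acts earlier in the lineage, was near background. Its brightest probe (ILMN_1245076) read 261.3 in PirBTM and 158.7 in wild type (detection p-value 0.0694), a bound of at least 1.75-fold higher in PirBTM. A second probe (ILMN_2707452) read 213.4 in PirBTM and 153.7 in wild type, with a bound of at least 1.11-fold. The third (ILMN_2573212) read 132.3 in PirBTM and 134.3 in wild type, with detection p-values of 0.909 and 0.608, and was dark on both.

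Pax5 could not be measured at this signal. Its single probe (ILMN_2687307) read 160.2 in PirBTM and 143.6 in wild type, with detection p-values of 0.147 in PirBTM and 0.268 in wild type. Neither reading stood out from the negative controls, so no fold is given. This says that Pax5 was not well above background on these arrays with this probe, not that it was absent. Bach2, another B cell transcription factor, was not detected either.

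Mzb1, the antibody chaperone, was bright in PirBTM cells and close to the detection limit in wild-type cells. Its probe (ILMN_2613601) read 2495 in PirBTM and 169.4 in wild type. The normalized values were 11.11 in PirBTM and 5.75 in wild type, at least 35.7-fold higher in PirBTM. The deposited intensities differed 14.7-fold, and without background correction the log2 bound of 5.16 became 3.62. The wild-type detection p-value was 0.0192, the only one of the 5 genes seen on the PirBTM array alone that lay under 0.05, so with that looser limit Mzb1 counts as measured on both arrays, with a log2 ratio of 5.35.

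**Figure D2:**
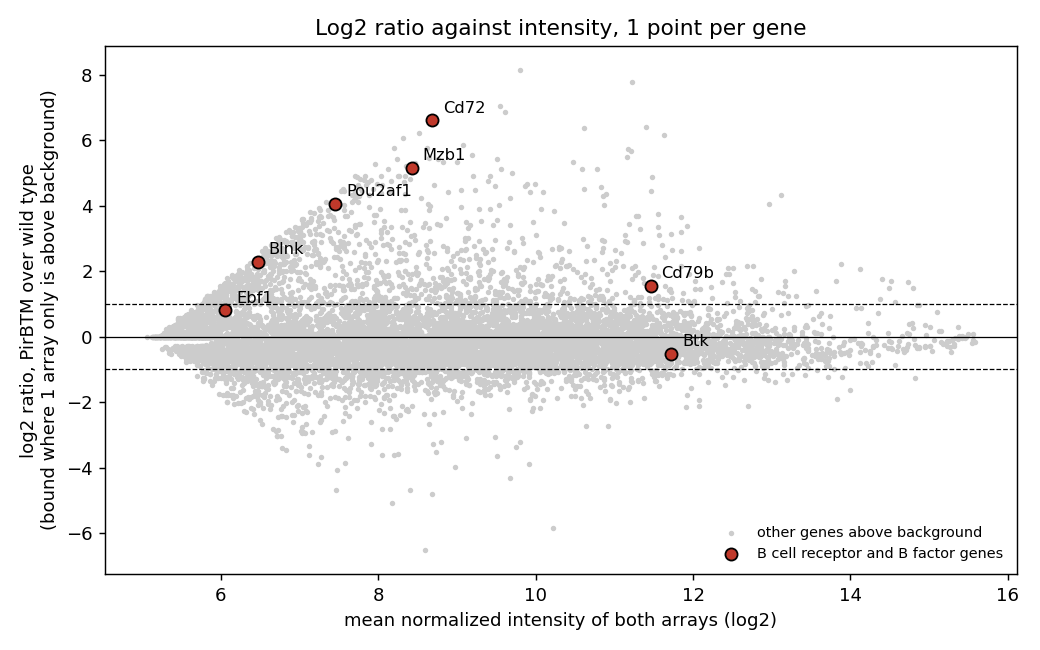
Log2 ratio of PirBTM over wild type (vertical axis, bound where 1 array only detects the gene) against the mean normalized intensity (log2, horizontal axis), 1 point per gene detected in either sample; dashed lines mark 2-fold. Cd72, Mzb1, Pou2af1 and Blnk lie above the upper dashed line along the edge set by the bound, Cd79b lies above it at high intensity, and Ebf1 and Btk lie between the lines; Pax5 is not drawn.

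The stretches upstream of the start sites are shown for Blnk, Cd72 and Pou2af1, which were dark in wild type and at least 2-fold higher in PirBTM, and for Btk, which was bright in both. Each is the 250 bases before the annotated start in RefSeq (GRCm38.p6), 5′ to 3′ on the gene's strand: chr19:40994222-40994471 on the minus strand, chr4:43454627-43454876 on the minus strand, chr9:51213440-51213689 on the plus strand and chrX:134583141-134583390 on the minus strand. Capitals mark matches, on either strand, to the octamer ATGCAAAT (reverse ATTTGCAT) or to the ETS core GGAAGT (reverse ACTTCC).
Blnk: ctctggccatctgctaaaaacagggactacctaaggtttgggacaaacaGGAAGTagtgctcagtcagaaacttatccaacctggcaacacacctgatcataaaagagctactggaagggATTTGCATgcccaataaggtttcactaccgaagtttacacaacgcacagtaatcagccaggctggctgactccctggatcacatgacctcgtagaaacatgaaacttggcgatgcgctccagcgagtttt
Cd72: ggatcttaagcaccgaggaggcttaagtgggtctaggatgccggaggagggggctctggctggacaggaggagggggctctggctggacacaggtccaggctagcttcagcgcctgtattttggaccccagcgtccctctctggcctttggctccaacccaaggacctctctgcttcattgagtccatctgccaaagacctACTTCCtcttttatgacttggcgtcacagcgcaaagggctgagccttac
Pou2af1: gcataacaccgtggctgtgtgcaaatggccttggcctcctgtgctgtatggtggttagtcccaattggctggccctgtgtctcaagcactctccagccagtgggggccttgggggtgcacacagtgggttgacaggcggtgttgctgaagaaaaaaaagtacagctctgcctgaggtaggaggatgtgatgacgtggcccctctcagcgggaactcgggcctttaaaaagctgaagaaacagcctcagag
Btk: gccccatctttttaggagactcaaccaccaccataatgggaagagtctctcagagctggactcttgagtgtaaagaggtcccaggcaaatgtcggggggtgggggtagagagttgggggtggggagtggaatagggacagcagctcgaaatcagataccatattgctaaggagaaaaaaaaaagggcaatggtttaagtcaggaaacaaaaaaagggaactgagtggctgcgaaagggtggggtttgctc

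The table matched 7 of the 9 genes, in 8 windows since Ebf1 has 2 starts. The octamer was found in 1 window, that of Blnk, 130 to 123 bases before the start, and in 1.6% of all 32851 windows of this length. The ETS core was found in 4 windows (Blnk, Cd72, Cd79a and 1 of Ebf1) and in 19.7% of all windows. A spaced palindrome of the kind bound by Ebf1, CCCNNGGG, was in 0 of the 8 windows and in 11.8% of all. None of these matches overlapped another in the 8 windows. The windows of Pou2af1 and Btk, with quite different ratios, held no match to any of the 3. These matches describe the letters of the windows only.

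The wider B cell receptor pathway was mixed. Of 25 detected receptor signalling genes, 8 were at least 2-fold higher in PirBTM, 1 was lower and 16 lay between. Their median log2 ratio was 0.39, beside -0.15 for all genes. Of all genes, 12.8% were higher by 2-fold or more and 9.67% lower. Of the 8 higher genes, 3 were detected in PirBTM only. Blk, a Src-family kinase of B cells, was at least 14-fold higher, and Ifitm1, a member of the interferon-induced transmembrane family, 10.3-fold higher. Dapp1, an adaptor that binds phosphoinositides, was 2.75-fold lower, and Malt1, a scaffold of NF-kB activation, had a log2 ratio of -0.81. Vav2, an exchange factor, was 5.94-fold higher and Pik3ap1, an adaptor for phosphoinositide 3-kinase, 5.37-fold. Plcg2, the phospholipase that Btk activates, had a log2 ratio of 0.39, Prkcb of 0.24 and Vav1 of -0.27, and all 3 were bright on both arrays. Syk was barely detected in PirBTM (5.77 log2 units) and not detected in wild type (5.10), with a bound of 0.00. Among the 18 signalling genes detected in both samples, 5 were higher by 2-fold or more and 1 lower, beside 9.77% and 9.86% of all such genes.

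Of 14 detected genes listed as inhibitors of the receptor, 8 were at least 2-fold higher in PirBTM, 0 were lower by that much and 6 lay between, with a median of 1.45. The 8 include Fcrla and Fcrl1 (at least 3.54-fold higher), which are not established inhibitors. Of all genes, 12.8% were higher by 2-fold or more and 9.67% lower. Behind Cd72, the intracellular Fc receptor-like protein Fcrla was at least 23.5-fold higher, with its other probes at bounds of 2.02 to 4.23 log2 units. The lowest were Pecam1 (log2 ratio 0.25) and Dok3 (-0.05). Ptpn6, the phosphatase through which Cd72 acts, had a log2 ratio of 0.66. Cd22, a sialic acid-binding inhibitor of B cells, was at least 8.2-fold higher, with another probe at a log2 bound of 1.61. The brightest probe of Fcgr2b gave 0.31, but its others gave values between -1.25 and 0.01, so its direction is uncertain. Of the 8 higher inhibitor genes, 5 were detected in PirBTM only. Among the 9 detected in both samples, 3 were higher by 2-fold or more and 0 lower, beside 9.77% and 9.86% of all such genes.

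Of 18 B lineage transcription factors detected, 6 were at least 2-fold higher and 1 lower, with a median of 0.85. In the same main setting, 12.8% of all genes were higher by 2-fold or more and 9.67% lower. With median scaling or cyclic loess 10 of the factors were higher, beside 15.1% and 16.6% of all genes. Among the 12 factors detected in both samples, 3 were higher by that much and 1 lower, beside 9.77% and 9.86% of all such genes. After Pou2af1 came Bcl11a, needed for early lymphoid development, at least 12.9-fold higher. Irf4, a factor of activated B cells and plasma cells, was at least 7.41-fold higher, and Pou2f2, an octamer-binding protein that partners Pou2af1, 5.09-fold. Mef2c was 3.84-fold lower, with its other probes at -1.42 to -1.96, and Etv6 had a log2 ratio of -0.98. Mef2c is also in the leukaemia programme below. Tcf3, an E protein upstream of Ebf1, differed by less than the probe SD (0.18), and Ikzf1 had a log2 ratio of 0.55.

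Genes by stage of B cell life were uneven. Mature B surface genes had 13 of 21 at least 2-fold higher and 0 lower (median 1.85), beside 12.8% and 9.67% of all genes. Of the 13, 11 were detected in PirBTM only. Among the 9 detected in both samples, 2 were higher by 2-fold or more and 0 lower, beside 9.77% and 9.86% of all such genes. The list was led by Fcmr, the IgM Fc receptor (at least 54.5-fold), and Scd1 (at least 27.8-fold). Scd1 is not a surface protein but a fatty acid desaturase of the endoplasmic reticulum that fat cells also make in quantity. The fat cell gene Adipoq, outside the lists, read 10.57 log2 units in PirBTM and 4.92 in wild type, and its part in the value of Scd1 was not tested. The B cell antigen Ms4a1 (CD20) was at least 2.96-fold and Cd40 at least 8.38-fold higher. Other detected probes of Cd40 gave log2 bounds of 1.88 and 0.58. The survival receptor Tnfrsf13c was at least 10.1-fold higher. Cd69 had a log2 ratio of -0.80 and Tnfrsf13b, another receptor for the same ligand family, of -0.77, while a second probe of Tnfrsf13b gave -1.58, past 2-fold lower. Pro-B and pre-B genes had 4 of 11 at least 2-fold higher (median 0.27), 3 of them detected in PirBTM only. Another 9, among them Rag1, Rag2 and Dntt of antigen receptor recombination, were detected in neither sample. Ly6d (at least 14.4-fold) and Vpreb3 (at least 7.9-fold) were highest, while Vpreb1, of the surrogate light chain, was above background in wild type only with a bound of -0.41, and 4 members, Bst1 among them, had a bound of 0.00.

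Plasma cell and secretory genes had 3 of 18 (16.7%) at least 2-fold higher, beside 12.8% of all genes, with a median of 0.24. Median scaling gave 5, beside 15.1% of all genes, and cyclic loess 6, beside 16.6%. Besides Mzb1 the 3 were Irf4 and Slamf7, a surface receptor of plasma and other immune cells (at least 3.45-fold). All 3 were detected in PirBTM only. Of the 12 detected in both samples 0 were higher by 2-fold or more, beside 9.77% of all such genes. The plasma cell factor Prdm1 and the antibody joining chain Jchain were detected in neither sample, and Ssr4 and Fkbp11, general secretory genes, had log2 ratios of -0.85 and -0.72. Of immunoglobulin genes, 1 had a named probe: Ighg1 was at least 6.57-fold higher in PirBTM (8.67 against 5.18 log2 units). Over these B lineage lists together, without the genes under study, 34 of 97 were at least 2-fold higher and 2 lower, with a median of 0.66. Of all genes, 12.8% were higher by that much and 9.67% lower. All these lists were chosen with earlier results of the same arrays known.

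**Figure D3:**
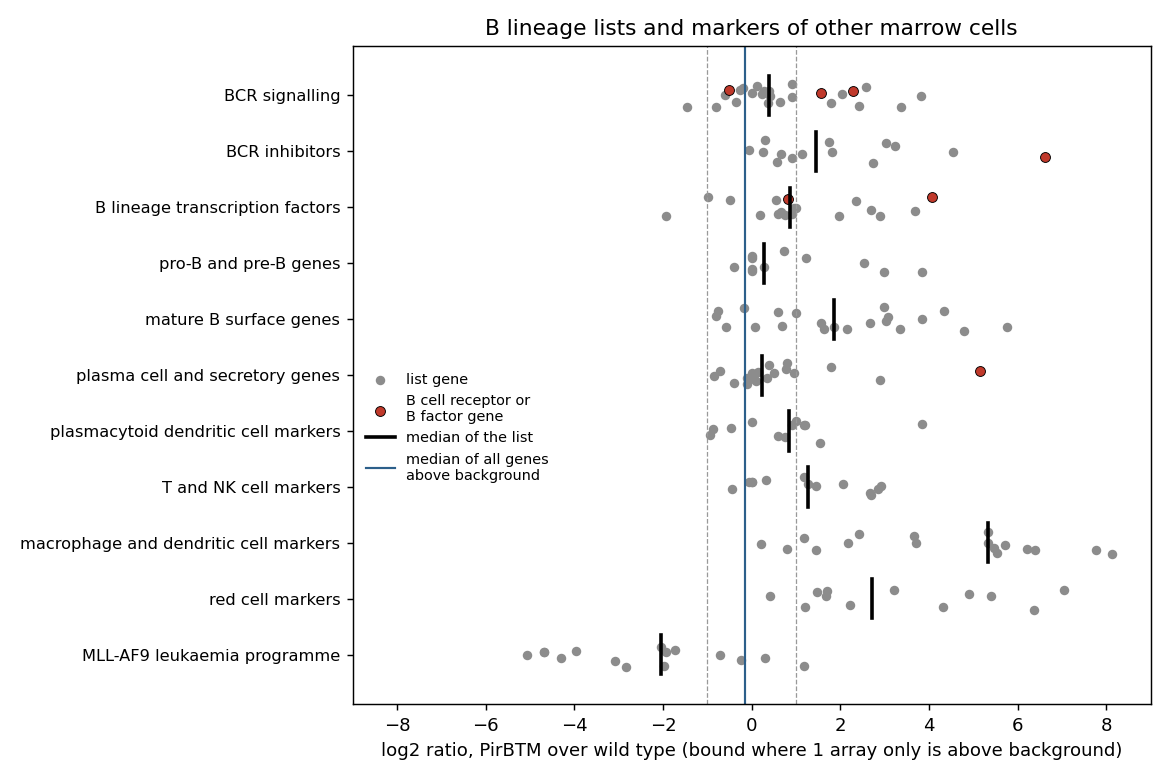
Log2 ratio of PirBTM over wild type (horizontal axis, bound where 1 array only detects the gene) of every detected gene, by list; red points are the genes under study, black bars the list medians, the blue line the median of all genes and dashed lines 2-fold. Mature B surface genes have a median of 1.85, plasma cell and secretory genes 0.24, macrophage and dendritic cell markers 5.34 and the MLL-AF9 leukaemia programme -2.04. The macrophage and dendritic cell list includes MHC class II genes that B cells also express.

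Several other cell types of the marrow also had brighter markers in PirBTM. The counts below stand beside 12.8% of all genes higher by 2-fold or more and 9.67% lower. Macrophage and dendritic cell markers were at least 2-fold higher in 15 of 17 (median 5.34), and their summed normalized intensity was 148440 in PirBTM and 7257 in wild type over 20 genes. Within this list H2-Eb1 and Cd74, of MHC class II presentation, were highest (log2 bound 8.14 and ratio 7.77) and Clec9a and Cd209a of dendritic cells lowest (bounds 0.79 and 0.22). B cells also express Cd74, H2-Aa, H2-Ab1, H2-Eb1 and Ciita, which count in this median and sum and do not separate the cell types. Outside these genes C1qb and Mrc1 had log2 ratios of 5.72 and 5.54, and 0 of the 17 were lower. Red cell markers were at least 2-fold higher in 11 of 12 (median 2.70; sums 164969 in PirBTM and 44266 in wild type over 14 genes), from Car1 and Slc4a1 (log2 ratios 7.05 and 6.38) down to Tfrc (1.21) and Gata1 (bound 0.41). T and NK cell markers were at least 2-fold higher in 8 of 13 (median 1.27; sums 11301 in PirBTM and 7820 in wild type over 18 genes), Klrd1 and Ccl5 highest (bound 2.92 and ratio 2.86) and Prf1 and Cd8b1 lowest (-0.05 and -0.44, although another probe of Cd8b1 gave a bound of 3.30), with Cd4 and Cd8a detected in neither sample. Plasmacytoid dendritic cell markers, a type that also makes Mzb1, were at least 2-fold higher in 4 of 12 (median 0.84; sums 16730 in PirBTM and 26298 in wild type over 15 genes). Among them Siglech was 2.93-fold higher, though another probe gave a log2 bound of 0.44. Ly6d is shared with the B lineage lists, and Ccr9 and Klk1 were detected in neither sample. Bst2 and Plac8 were lowest (-0.87 and -0.95). Plac8 was also the brightest, at 13.45 log2 units in PirBTM and 14.40 in wild type, and made up most of both sums.

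The B cell markers proper were at least 2-fold higher in 4 of 5 (median 1.56, with sums of 5971 in PirBTM and 1790 in wild type over 6 genes). Most of both sums came from Cd79b. This list mostly repeats the genes under study, and Cd22 and Ms4a1 are the 2 that are not among them. Cd22, Blnk, Ms4a1 and Ebf1 were detected in PirBTM only, Cd79b in both samples, and Pax5 in neither. The MLL-AF9 leukaemia programme ran the other way, with 11 of 15 at least 2-fold lower and 1 higher (median -2.04; sums 5002 in PirBTM and 20549 in wild type over 17 genes), Bcl2 and Men1 highest (1.17 and 0.30) and Eya1 and Hoxa5 lowest (bounds -4.68 and -5.07). Of 2 genes used to recognise immature marrow cells, Kit was detected in both samples (11.01 log2 units in PirBTM and 11.72 in wild type) and Cd34 in wild type only (5.33 in PirBTM and 7.66 in wild type). The part of other cell types in the values of Cd72, Mzb1, Pou2af1, Blnk and Cd79b was not tested. In RNA of whole samples, more cells of a type and more RNA per cell cannot be told apart.

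Cd79b and Btk, detected in both samples, kept their signs in all 7 alternatives that recompute the values. Cd79b had log2 ratios of 1.49 to 1.82 and Btk of -0.55 to -0.27. The bounds of the other genes cannot pass 0 by construction, so their sign is no sign of stability, and their sizes varied: Cd72 from 5.02 to 7.09, Mzb1 from 3.62 to 5.35, Pou2af1 from 2.61 to 4.54 and Blnk from 1.14 to 2.77. Ebf1 ranged from 0.29 to 1.29, on either side of 2-fold.

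**Figure D4:**
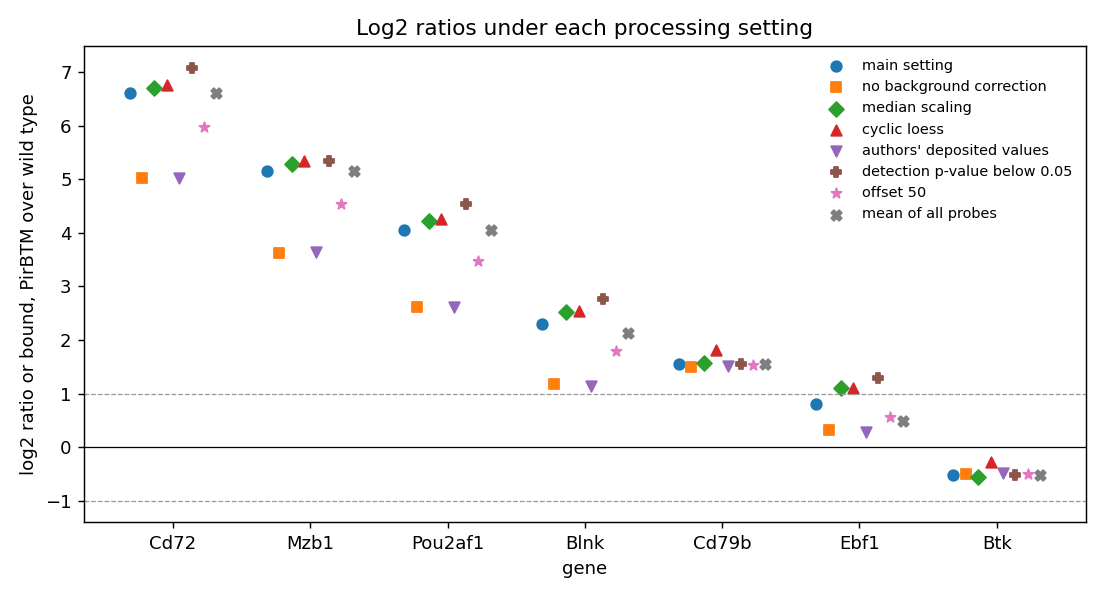
Log2 ratio or bound of PirBTM over wild type (vertical axis) of 7 genes under the main setting and 7 alternatives (symbols); dashed lines mark 2-fold. Cd79b stays between 1.49 and 1.82, while the bounds of Cd72, Mzb1, Pou2af1 and Blnk are lowest without background correction and in the authors' deposited values.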

How the data were processed

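Total RNA of 1 PirBTM and 1 wild-type sample was hybridized to Illumina bead arrays. Per the labels' protocols it was extracted with Trizol, treated with DNase and amplified to biotinylated cRNA. The authors deposited the scanner's mean intensity of every probe with its detection p-value, per the file headers. These intensities were linear and not normalized between arrays (medians 161.3 in PirBTM and 148.2 in wild type). The authors also deposited a series table of linear intensities, normalized by a method not given in the sources used here (medians 148.3 and 148.2), which served as an alternative.

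Background was corrected with nec of limma 3.58.1 (R 4.3.3), which infers the level of the negative controls from those p-values (147.2 in PirBTM and 139.3 in wild type), with an offset of 16. Values were then quantile normalized and taken to log2. Detected at p under 0.01 were 16392 probes (36.2%) in PirBTM and 15137 (33.4%) in wild type. The platform annotation named 1 gene for 34885 probes, several for 18, and 10378 were unnamed here. By gene identifier, 34807 matched the RefSeq table of GRCm38.p6, with 0 symbols changed. Each gene's brightest probe stood for it. The array positions of the 2 samples cannot be told apart from genotype. The normalization was tested on simulated data. That test changed only probes well above background in wild type, so it does not cover the folds given as minimums.

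Named genes were all probes of the members and, of each list, the 2 highest and 2 lowest by ratio or bound; other genes were picked as examples with values in view. The members and the 13 lists (217 genes, 201 with a named probe) were chosen with earlier results of these data known. The alternatives were 7 ways to compute the values and 2 other fold thresholds. The number of arrays limits the precision. Sequences are from RefSeq tables.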

Additional observations from a re-analysis of the deposited data

How the results depend on the processing

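No paired analysis was possible because each group had 1 array, and for the same reason no replicate could be left out. The number of the genes under study at least 2-fold higher was 5 or 6 in the 7 alternatives that keep this threshold, 6 were past 1.5-fold and 4 past 3-fold, and 0 were lower in each. Ebf1 was past 2-fold with median scaling, cyclic loess and a detection limit of 0.05. The median log2 ratio over these genes (2.29) was 1.49 with no background correction, 1.51 by the authors' deposited values, 1.80 with an offset of 50 and 2.77 with a detection limit of 0.05. A higher offset or no correction compresses ratios of dim probes by construction. The share of all genes at least 2-fold higher (12.8%) was 8.5% without correction and 8.54% by the authors' values. It was 15.1% with median scaling and 16.6% with cyclic loess. The share lower (9.67%) was 3.94% without correction, 4.14% by the authors' values, 6.68% with median scaling and 5.32% with cyclic loess. At 1.5-fold these shares were 19.6% and 25.5%, and at 3-fold 7.87% and 2.78%. Higher genes made up 57% of all 2-fold differences, 68.3% without correction, 67.4% by the authors' values, 69.4% after median scaling and 75.7% after cyclic loess, and the cause was not tested. B lineage transcription factors at least 2-fold higher (6) were 10 with median scaling, 10 with cyclic loess and 13 at 1.5-fold; plasma cell and secretory genes (3) were 5, 6 and 6 in the same settings. The counts of the other 4 B lineage lists stayed within 1.5 times the main count in all 9. Signal over background limits Ebf1, Pax5 and every wild-type value of the genes seen on the PirBTM array only.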
